A study of Mus musculus with 19 samples.

Results

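Collagens and laminins are the structural proteins of the extracellular matrix, and 55 of the 20938 genes in the deposited count table of mouse left prelimbic cortex encode one. Members were the 44 rows named as collagen chains and the 11 named as laminin chains with a count above 0 in at least 4 libraries. All 55 met that condition, and all 55 passed the filter on low counts that left 16417 genes for testing. RNA was sequenced from 19 libraries in 4 groups: 6 Control, 5 Control+c-MSST, 4 SCZ and 4 SCZ+c-MSST. The drug given to SCZ mice was MK-801, which blocks NMDA receptors and serves as a model of schizophrenia, at 0.2 mg/kg each day into the peritoneum over 2 weeks. Control mice had received saline on the same schedule. In both groups named with c-MSST, ferumoxytol iron oxide nanoparticles were placed in the left prelimbic cortex by stereotactic surgery and a pulsed magnetic field was applied. Tissue was taken on day 3 after surgery. The labels give no strain, sex or age. They do not say whether groups without c-MSST had surgery, so c-MSST and injury from the injection cannot be told apart. An MK-801 regimen models some features of schizophrenia only.

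In the brain most collagen and laminin is made around blood vessels and in the meninges. Laminins, trimers of an alpha, a beta and a gamma chain, and collagen IV, a trimer built mainly from the products of Col4a1 and Col4a2, form linked sheets that make up the basement membrane under endothelial cells, pericytes and astrocyte endfeet. Fibrillar collagens such as types I, III and V are made chiefly by fibroblasts of the meninges and of larger vessels, and collagen VI forms beaded filaments at the border of basement membranes. After penetrating injury, fibroblasts and pericytes lay down collagen and laminin as a scar. Some collagens are neuronal: Col19a1 is made by interneurons, and neurons also make Col25a1.

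Col4a1 and Col4a2 are shown first by sequence because they are the most highly expressed collagen IV genes and moved together between libraries. Both lie on mouse chromosome 8 (GRCm38, GENCODE M21), Col4a2 at 11312805-11449287 on the plus strand and Col4a1 at 11198423-11312826 on the minus strand. They are transcribed away from each other from starts that overlap by 22 bases. The 30 bases over both starts (RefSeq, GRCm38.p6, chr8:11312801-11312830, plus strand, 5′ to 3′) are given below. Capitals mark the 22 bases from the first base of Col4a2 to the first base of Col4a1.
Col4a2 and Col4a1 starts: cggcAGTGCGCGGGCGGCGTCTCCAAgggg
The letters GGGCGG, which Sp1-type factors bind, stand at 11312812-11312817 in this run. In the 300 bases around each RefSeq start, GGGCGG on either strand was found in 25 of 40 members with a window, 62.5%, against 38.2% of 27025 genes. CCAAT was found in 14 of the 40 (35.0%, against 41.1%) and TATAAA in 5 (12.5%, against 15.7%). These shares were not adjusted for base composition. The share of G and C in the members' windows ran from 37.7% (Col3a1) to 75% (Col5a1). The other collagen IV genes are also arranged head to head, Col4a3 with Col4a4 on chromosome 1 with 71 bases between them and Col4a5 with Col4a6 on chromosome X with 1308 bases between them.

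Library totals ran from 50140626 to 82416746 counts, and levels are given as CPM, a gene's counts scaled to library size. A count of 0 allows 0.0349 to 0.0620 CPM, for counting error only. All 8 markers of excitatory cortical neurons were above 0 in every library, with sums of 4892 to 7741 CPM. Markers of neighbouring tissue varied between libraries. Control replicate 2 held the choroid plexus gene Ttr at 1607 CPM, against 150 CPM in Control replicate 3 and 7.78 CPM or less elsewhere. Control replicate 3 held the fibroblast gene Dcn at 53.9 CPM, against 4.61 to 18.1 CPM elsewhere. The septal gene Zic1 reached 34.5 to 51.6 CPM in 6 libraries, namely SCZ replicates 2, 3 and 5 with Control replicates 2, 4 and 5, and stood at 9.65 to 16.9 CPM in the other 13. In bulk tissue, fewer cells of a type and less RNA per cell cannot be told apart.

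Levels between genes are compared in FPKM, which is scaled to gene length. Lamb2 and Lamb1, laminin beta chains of vascular and meningeal basement membranes, had the highest deposited means, 44.4 and 16.2 FPKM. Col4a2 (11.8 FPKM), Col19a1 (9.26), Lama2 (8.50), Col6a1 (7.27), Col4a1 (6.00), Lama4 (5.61), Col25a1 (5.44) and Col5a1 (4.55) followed. The lowest were Col2a1 and Col4a4, at 0.0844 and 0.0791 FPKM. The gene lengths that these FPKM values imply differ from the merged exon lengths of GENCODE M21 by factors of 0.134 (Lamb2) to 4.39 (Col6a1). CPM was therefore also divided by the GENCODE length, a check chosen after the FPKM values had been seen. On that scale Col6a1 (31.7 CPM per kb), Col4a2 (16.8), Col19a1 (12.4), Col4a1 (12.2) and Lamc1 (9.05) stood highest, and Lamb2 at 5.90 ranked 6. The first 10 places of both scales shared 8 genes: Lamb2, Lamb1, Col4a2, Col19a1, Col6a1, Col4a1, Col25a1 and Col5a1. Lama2 ranked 5 by FPKM and 16 by CPM per kb, and Lama4 ranked 8 and 25, so their place in the order is uncertain. Comparisons of 1 gene between libraries do not depend on its length.

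By class, the abundant members stood at the following levels over all 19 libraries. Among fibrillar collagens, Col5a1 averaged 4.55 ± 1.37 FPKM (SD, n = 19) and Col11a2 4.38 ± 0.604 FPKM. Among the other collagens, Col12a1 averaged 4.38 ± 0.939, Col25a1 5.44 ± 0.783, Col15a1 1.09 ± 0.211 and Col26a1 1.14 ± 0.240 FPKM. Of the 55 members, 25 averaged at least 10 CPM and 3 averaged under 1 CPM (Col9a1, Col4a4 and Col2a1). Counts were above 0 in every library for 54 members. The exception, Col8a2, had no count in Control replicate 1 and Control+c-MSST replicate 6. Within groups, the median member varied by a standard deviation of 0.27 on the log2 CPM scale, against 0.17 for the median of all 16417 genes tested. Exons of 16 members overlap another gene of GENCODE M21, in 13 cases on the opposite strand, and reads of such pairs may be shared because the sources used here do not give the strand setting of the counting.

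**Figure D1:**
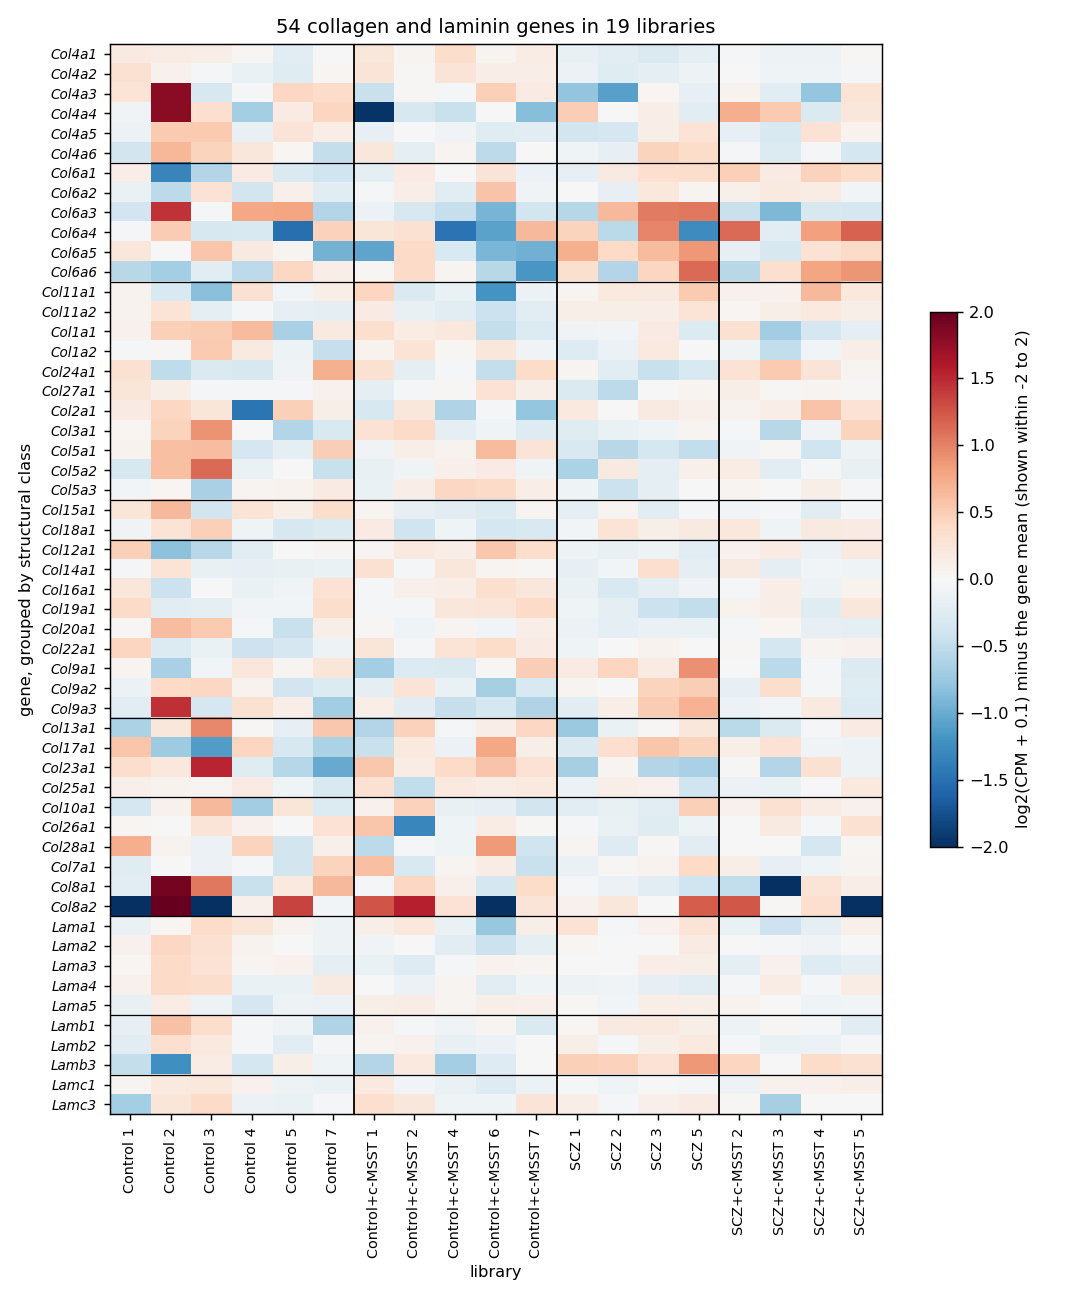
Level of 54 of the 55 genes (rows, by structural class) in each of the 19 libraries (columns, by group) as log2(CPM + 0.1) minus the gene's mean; red is above and blue below the mean, with colours limited to -2 to 2. Control replicate 2 holds the highest value of 15 of the 54 genes, and Col4a1 and Col4a2 are below their means in all 4 SCZ libraries.

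The 55 genes did not peak evenly over the libraries. Control replicate 2 held the highest value of 15 members and Control replicate 3 of 11. In Control replicate 2 stood Col8a2 (10.3 CPM, 0 to 2.48 elsewhere) and Col8a1 (11.4 CPM, 0.331 to 6.16 elsewhere), which encode the short-chain collagen VIII. Col4a3 (4.01 CPM, 0.453 to 1.54 elsewhere) and Col4a4 (3.07 CPM, 0.135 to 1.42 elsewhere), chains of a specialised collagen IV, and the cartilage-type Col9a3 (25.1 CPM, 5.53 to 14.6 elsewhere) peaked there too. The 10 choroid plexus markers summed to 1843 CPM in that library, and their sums were 5.62 to 1843 CPM in Control, 5.13 to 11.96 in Control+c-MSST, 17.8 to 29.4 in SCZ and 7.73 to 16.2 in SCZ+c-MSST, with 3 of the 10 above 0 everywhere. The same library held the lowest Col6a1, 53.5 CPM, against 89.1 to 186 CPM elsewhere. In Control replicate 3 peaked fibroblast collagens Col3a1 (10.6 CPM, 3.72 to 7.75 elsewhere), Col1a2 (29.2 CPM, 14.5 to 24.6 elsewhere) and Col5a2 (14.8 CPM, 4.29 to 10.3 elsewhere), and the transmembrane collagen Col23a1 (25.5 CPM, 4.36 to 13.2 elsewhere). Other chains of these types did not. Col1a1 peaked in Control replicate 4 (17.1 CPM, against 15.6 in Control replicate 3). Col5a1 peaked in Control+c-MSST replicate 6 (73.1 CPM, against 72.5 in Control replicate 3), and Col5a3 was lowest in Control replicate 3 (3.24 CPM). The 20 fibroblast markers, of which Dpt was at 0 in 4 libraries, summed to 605 to 1328 CPM in Control, 285 to 908 in Control+c-MSST, 612 to 769 in SCZ and 532 to 784 in SCZ+c-MSST, with Control replicate 3 the highest. The part of choroid plexus or meningeal RNA in these levels was not tested.

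Members were set against a fibroblast and an endothelial score, each the mean log2 CPM of the markers after centring each marker. Of 16 relations, Lama1 and Col3a1 with the fibroblast score passed on both coefficients. Lama1, a laminin of the meningeal basement membrane, gave Pearson r = 0.79 (permutation p = 8e-05, adjusted p = 0.00128) and Spearman rho = 0.63 (permutation p = 0.00423, adjusted p = 0.0325). Col3a1, a fibrillar collagen, gave r = 0.67 (permutation p = 0.00274, adjusted p = 0.0167) and rho = 0.72 (permutation p = 0.000830, adjusted p = 0.0133). With Control replicate 3 and Control+c-MSST replicate 6 left out, the libraries farthest from the median score, r was 0.57 for Lama1 and 0.70 for Col3a1. After subtracting group means, r was 0.82 and 0.70. Lamc1 and Col1a1 passed on r alone (0.63, adjusted permutation p = 0.0167, and 0.56, adjusted permutation p = 0.0418), and without those libraries r was 0.29 and 0.42, so the relation of Lamc1 rests on them. Col1a2 passed on rho alone (0.61, adjusted permutation p = 0.0325). Its r was 0.49, and 0.78 without Control replicate 3 and Control+c-MSST replicate 6. After subtracting group means it was 0.58. No relation with the endothelial score passed. The 15 endothelial markers, all above 0 everywhere, summed to 444 to 464 CPM in Control, 467 to 529.8 in Control+c-MSST, 461 to 522 in SCZ and 436 to 527 in SCZ+c-MSST. By edgeR, 12 of these 15 had a log2 fold change above 0 in SCZ versus Control (median 0.12). At an unadjusted edgeR p under 0.05 stood 6 higher and 1 lower, against 13.5% of all genes, and none passed adjustment. In SCZ+c-MSST versus Control+c-MSST 7 of the 15 were above 0. In SCZ+c-MSST versus SCZ 12 of the 15 were below 0 (median -0.11). There 2 were higher and 4 lower at an unadjusted edgeR p under 0.05, against 7.56% of all genes, and none passed adjustment. The 13 mural markers summed to 290.0 to 319 CPM in Control, 287 to 337 in Control+c-MSST, 300.4 to 327 in SCZ and 282 to 318 in SCZ+c-MSST. Of the 13, 9 were above 0 in SCZ versus Control and 11 below 0 in SCZ+c-MSST versus SCZ.

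Across the 4 groups, no collagen or laminin passed an adjusted p under 0.05 in any of the 7 contrasts fitted with edgeR. The share of all tested genes that did was 0% for SCZ versus Control, 0.329% for Control+c-MSST versus Control, 0% for SCZ+c-MSST versus SCZ and 0% for SCZ+c-MSST versus Control+c-MSST. It was 0% for the effect of MK-801 averaged over both c-MSST states, 0.0122% for the averaged effect of c-MSST and 0% for the interaction. At an unadjusted p under 0.05 stood 12, 10, 4 and 5 of the 55 members in the 4 comparisons of groups, against 13.5%, 16.6%, 7.56% and 11.0% of all genes. For averaged MK-801, averaged c-MSST and the interaction the members were 12, 10 and 3, against 16.6%, 15.8% and 7.29% of all genes. The members' median log2 fold change was -0.06, -0.11, 0.02 and -0.07 in the 4 comparisons, where that of all genes was 0.00, -0.01, -0.01 and 0.00. With 1 library left out, the members' median ran from -0.00345 (without Control replicate 2) to -0.109 (without Control replicate 7) in SCZ versus Control and from -0.0341 (without Control replicate 3) to -0.147 (without Control replicate 5) in Control+c-MSST versus Control. It ran from -0.0306 (without SCZ+c-MSST replicate 4) to 0.0607 (without SCZ replicate 5) in SCZ+c-MSST versus SCZ, where its sign turned, and from -0.0284 (without SCZ+c-MSST replicate 3) to -0.0785 (without Control+c-MSST replicate 4) in SCZ+c-MSST versus Control+c-MSST. These contrasts share libraries and are not independent.

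**Figure D2:**
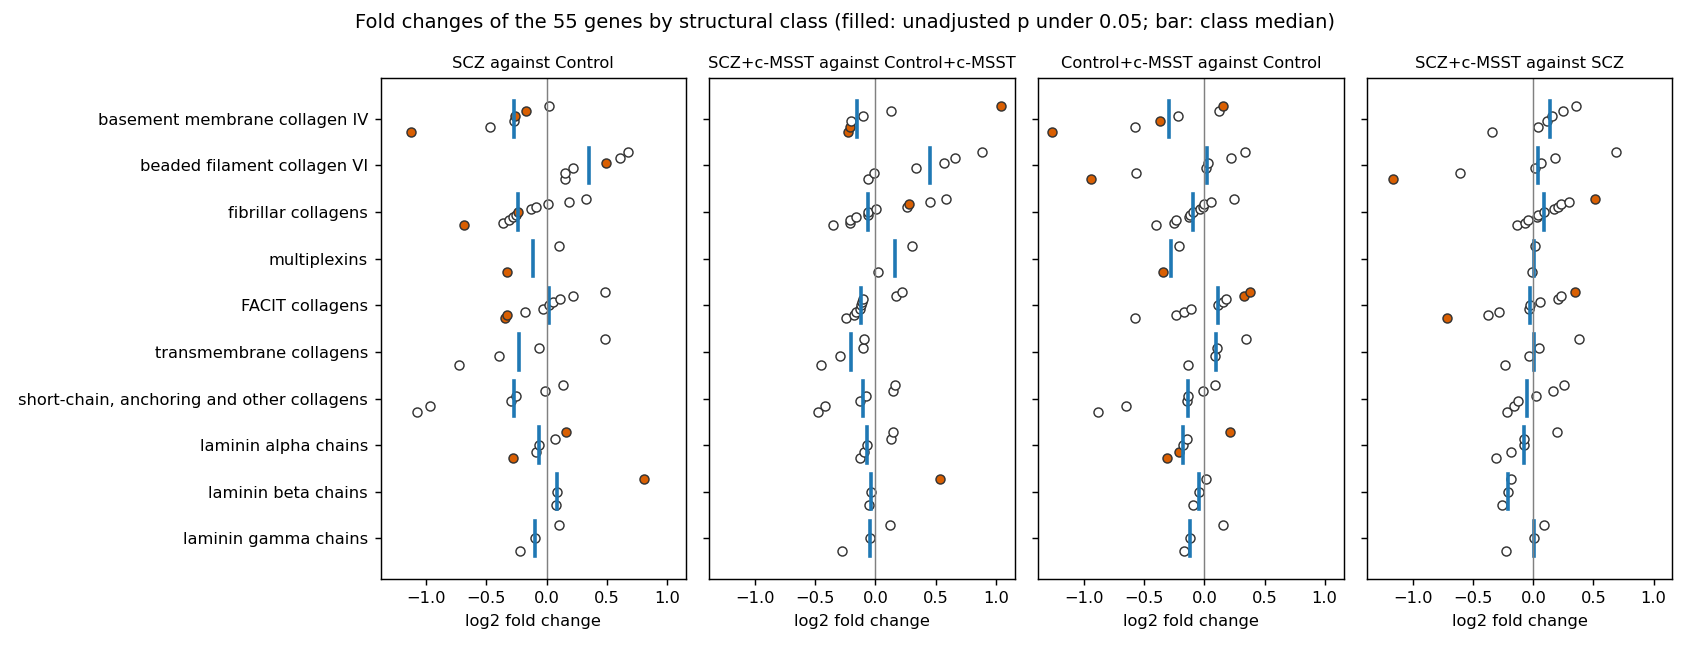
Log2 fold change of each of the 55 genes (points, by structural class) in the 4 comparisons of groups, with the class median as a bar; filled points have an unadjusted p under 0.05. No gene passed after adjustment, and all 6 collagen VI genes lie above 0 in SCZ versus Control.

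Of the 6 collagen IV genes, 5 had a log2 fold change below 0 in SCZ versus Control, with a median of -0.27, and none passed. Col4a1 stood at 78.4 to 102 CPM (median 95.4) in the 6 Control libraries and at 106, 93.5, 115, 93.6 and 101 CPM in the 5 Control+c-MSST libraries. SCZ values of Col4a1 were 81.6, 77.4, 74.1 and 78.6 CPM, and SCZ+c-MSST values 87.98, 84.2, 84.04 and 91.6 CPM. For Col4a1, SCZ+c-MSST lay wholly above SCZ and SCZ+c-MSST lay wholly below Control+c-MSST, and the other comparisons overlapped. The means were 93.5 ± 8.71 CPM (SD, n = 6) in Control, 102 ± 9.26 CPM (n = 5) in Control+c-MSST, 77.9 ± 3.10 CPM (n = 4) in SCZ and 86.9 ± 3.57 CPM (n = 4) in SCZ+c-MSST. SCZ and Control overlapped through Control replicate 5. In SCZ versus Control, Col4a1 gave a log2 fold change of -0.26 (SE 0.07) at an adjusted p = 0.159. The averaged effect of MK-801 was -0.25 ± 0.05 (adjusted p = 0.0651), and over 30 alternatives it ranged from -0.27 to -0.22 and passed in 6. Col4a2 was at 93.1 to 136 CPM (median 111) in Control and at 133, 113, 132, 121 and 122 CPM in Control+c-MSST. Levels of Col4a2 were 102, 93.5, 96.99 and 104 CPM in SCZ and 110.4, 105, 104 and 109 CPM in SCZ+c-MSST. For Col4a2, SCZ+c-MSST lay wholly above SCZ and SCZ+c-MSST lay wholly below Control+c-MSST, and the other comparisons overlapped. Its averaged MK-801 value was -0.19 ± 0.06 (adjusted p = 0.111). Both genes lay lower in every SCZ+c-MSST library than in every Control+c-MSST library, as did 4.67% of genes in one direction or the other, with log2 fold changes of -0.23 (adjusted p = 0.307) and -0.21 (adjusted p = 0.381).

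Over the 19 libraries Col4a1 and Col4a2, the pair with overlapping starts shown above, gave r = 0.89 and rho = 0.89, both with a permutation p of 1e-05, the smallest that 100000 resamples can give, and adjusted p = 3e-05 over 3 pairs. This relation and those of the other pairs were chosen after seeing the data. With replicate 1 of Control and of Control+c-MSST left out, r was 0.88, and after subtracting group means 0.79. Col4a3 with Col4a4 gave r = 0.46 and -0.04 without Control 2 and Control+c-MSST 1, so it rests on those libraries. Col4a5 with Col4a6 gave r = 0.55 and 0.38 without Control+c-MSST 6 and Control 2. Col4a4, of the specialised network was at 0.471 to 3.07 CPM (median 0.984) in Control and at 0.135, 0.633, 0.573, 0.814 and 0.405 CPM in Control+c-MSST. Levels of Col4a4 were 1.18, 0.815, 0.896 and 0.685 CPM in SCZ and 1.42, 1.22, 0.642 and 0.961 CPM in SCZ+c-MSST. Groups overlapped for Col4a4 in each of the 4 comparisons. Its fold change on the log2 scale was -1.27 (adjusted p = 0.170) in Control+c-MSST versus Control, -0.75 without Control replicate 2, and 1.04 (adjusted p = 0.440) in SCZ+c-MSST versus Control+c-MSST.

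**Figure D3:**
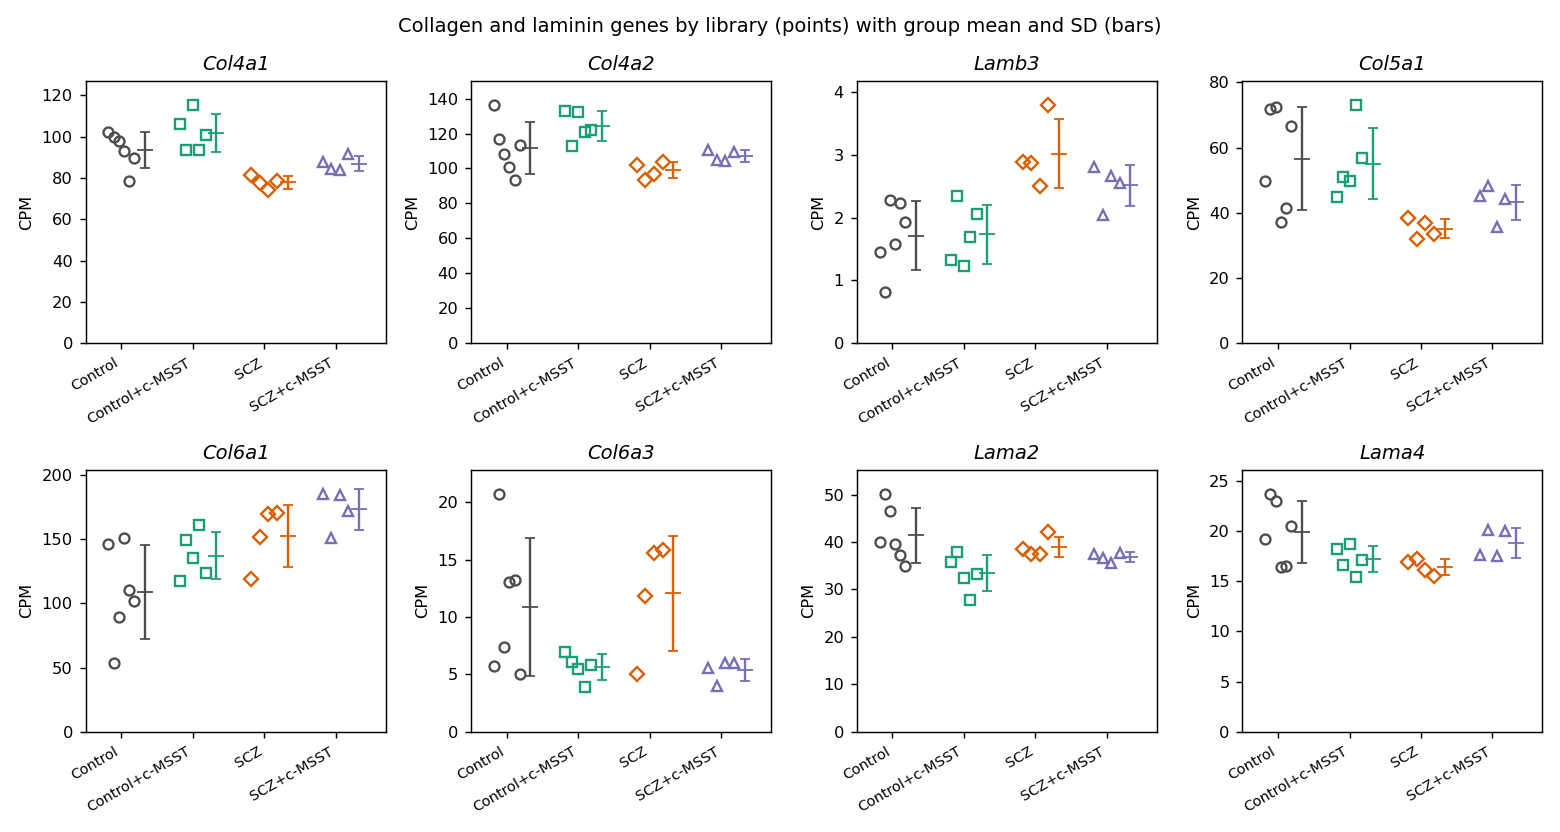
CPM of Col4a1, Col4a2, Lamb3, Col5a1, Col6a1, Col6a3, Lama2 and Lama4 in each library (points) by group, with the group mean and SD. The 4 SCZ libraries of Col4a1 sit between 74.1 and 81.6 CPM, and those of Lamb3 between 2.51 and 3.80 CPM, above all 6 Control libraries.

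Among laminins, Lamb3, the beta chain of epithelial laminin-332, was the member whose SCZ and Control libraries lay apart with SCZ higher. Lamb3 stood at 0.816 to 2.29 CPM (median 1.76) in the 6 Control libraries and at 1.33, 2.35, 1.24, 1.69 and 2.05 CPM in the 5 Control+c-MSST libraries. SCZ values of Lamb3 were 2.89, 2.87, 2.51 and 3.80 CPM, and SCZ+c-MSST values 2.80, 2.04, 2.66 and 2.56 CPM. For Lamb3, SCZ lay wholly above Control, and the other comparisons overlapped. The means were 1.71 ± 0.553 CPM (SD, n = 6) in Control and 3.02 ± 0.550 CPM (n = 4) in SCZ, and the SCZ libraries gave a log2 fold change of 0.81 (SE 0.24) at an adjusted p = 0.185. Averaged over c-MSST states the value was 0.68 ± 0.18 (adjusted p = 0.0864). Col26a1, a small secreted collagen, was the member with all SCZ libraries below all Control libraries, so 2 of 55 members did not overlap, against 2.84% of all genes. In Control+c-MSST versus Control no member was separated, against 1.60% of genes. Lama2, the alpha chain of astrocyte and pericyte basement membranes was at 34.98 to 50.2 CPM (median 39.7) in Control and at 35.8, 37.8, 32.4, 27.8 and 33.2 CPM in Control+c-MSST. Levels of Lama2 were 38.6, 37.5, 37.5 and 42.02 CPM in SCZ and 37.4, 36.6, 35.6 and 37.8 CPM in SCZ+c-MSST. Lama2 overlapped between the groups of every comparison. In Control+c-MSST versus Control, Lama2 gave a log2 fold change of -0.31 (SE 0.09) at an adjusted p = 0.0929, and -0.18 without Control replicates 2 and 3. Lama5, the endothelial alpha chain of mature vessels, gave 0.21 (adjusted p = 0.138) in that contrast.

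Lama4, the other endothelial alpha chain, stood at 16.4 to 23.7 CPM (median 19.9) in the 6 Control libraries and at 18.2, 16.6, 18.7, 15.4 and 17.1 CPM in the 5 Control+c-MSST libraries. SCZ values of Lama4 were 16.9, 17.2, 16.1 and 15.5 CPM, and SCZ+c-MSST values 17.6, 20.1, 17.6 and 20.00 CPM. For Lama4, SCZ+c-MSST lay wholly above SCZ, and the other comparisons overlapped. Its log2 fold change was -0.28 (adjusted p = 0.237) in SCZ versus Control. The interaction, which subtracts the c-MSST difference under saline from that under MK-801, was 0.41 ± 0.14 for Lama4 (adjusted p = 0.583) and -0.29 ± 0.10 for Lama5 (adjusted p = 0.593). In SCZ+c-MSST versus SCZ, 9 of 55 members did not overlap, against 8.28% of all genes. Col24a1, Col26a1, Col4a1, Col4a2 and Lama4 were higher in every SCZ+c-MSST library, and Col6a5, Col9a1, Lamb1 and Lamb2 lower. Their adjusted p-values did not pass. The smallest in that contrast over all members was 0.504, for Col6a3.

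Fibrillar collagen Col5a1, which nucleates collagen I fibrils, had a log2 fold change below 0 in SCZ versus Control, with overlap. Col5a1 stood at 37.2 to 72.5 CPM (median 58.2) in the 6 Control libraries and at 44.8, 50.98, 49.6, 73.1 and 56.8 CPM in the 5 Control+c-MSST libraries. SCZ values of Col5a1 were 38.4, 32.01, 36.8 and 33.4 CPM, and SCZ+c-MSST values 44.99, 48.1, 35.6 and 44.1 CPM. The ranges of Col5a1 overlapped in all 4 comparisons. In SCZ versus Control it gave a log2 fold change of -0.69 (SE 0.18) at an adjusted p = 0.164, and the averaged MK-801 value was -0.52 (adjusted p = 0.0843). Markers of striatal neurons, which lie next to the prelimbic cortex, varied with this gene, and their part in its differences was not tested. All 9 were above 0 in every library and summed to 235 to 2249.8 CPM in Control, 327 to 1877 in Control+c-MSST, 1828 to 2500.4 in SCZ and 1197 to 2936 in SCZ+c-MSST. Their score put 6 libraries (Control replicates 2, 3 and 7, Control+c-MSST replicates 4, 6 and 7) apart from the other 13. Col5a1 stood at 49.6 to 73.1 CPM in the 6 and 32.01 to 50.98 CPM in the 13. Within the 6, r of Col5a1 with the score was -0.86 (exact permutation p = 0.0181, adjusted p = 0.161), and within the 13 it was -0.56 (permutation p = 0.0483, adjusted p = 0.161). None of 10 such relations passed adjustment. With the score as a covariate, added after seeing the data, the averaged MK-801 value of Col5a1 was -0.12, that of Col4a1 -0.21 and that of Lamb3 0.65. Every SCZ and SCZ+c-MSST library is among the 13, so this fit cannot separate the score from MK-801.

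Collagen VI values were above 0 for all 6 genes in SCZ versus Control, with a median log2 fold change of 0.35, but no gene passed. The count was 5 of 6 without SCZ replicate 3 (Col6a4 below 0), without SCZ replicate 5 and with the septal score as a covariate (Col6a3 below 0 in both). It was also 5 of 6, with Col6a3 below 0 and a median of 0.23, without the libraries with Zic1 above 30 CPM. That fit leaves 1 SCZ library (replicate 1). In SCZ+c-MSST versus Control+c-MSST 4 of 6 were above 0, with a median of 0.45 and with Col6a2 and Col6a3 below 0. Col6a1 stood at 53.5 to 151 CPM (median 106) in the 6 Control libraries and at 117, 149.6, 135, 161 and 123 CPM in the 5 Control+c-MSST libraries. SCZ values of Col6a1 were 119, 151, 169.9 and 170.2 CPM, and SCZ+c-MSST values 186, 151, 184 and 172 CPM. Col6a1 overlapped between the groups of every comparison. Its log2 fold change was 0.49 ± 0.21 (adjusted p = 0.316), and 0.26 without Control replicates 2 and 3. Col6a3 was at 5.02 to 20.8 CPM (median 10.2) in Control and at 6.93, 6.04, 5.47, 3.94 and 5.83 CPM in Control+c-MSST. Levels of Col6a3 were 5.07, 11.9, 15.6 and 15.8 CPM in SCZ and 5.53, 4.02, 6.02 and 5.98 CPM in SCZ+c-MSST. Groups overlapped for Col6a3 in each of the 4 comparisons. The averaged effect of c-MSST on Col6a3 was -1.05 ± 0.26 (adjusted p = 0.0934). High values of Col6a3 stood in libraries with high Zic1, and the 5 septal markers, of which Lhx8 was at 0 in 5 libraries, summed to 54.7 to 142 CPM in Control, 54.3 to 60.3 in Control+c-MSST, 55.6 to 126 in SCZ and 50.6 to 66.01 in SCZ+c-MSST. With the septal score as a covariate, added after seeing the data, the averaged c-MSST value of Col6a3 was -0.45 (adjusted p = 0.701). Every library with Zic1 above 30 CPM is without c-MSST, so this fit cannot fully separate the score from c-MSST.

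**Figure D4:**
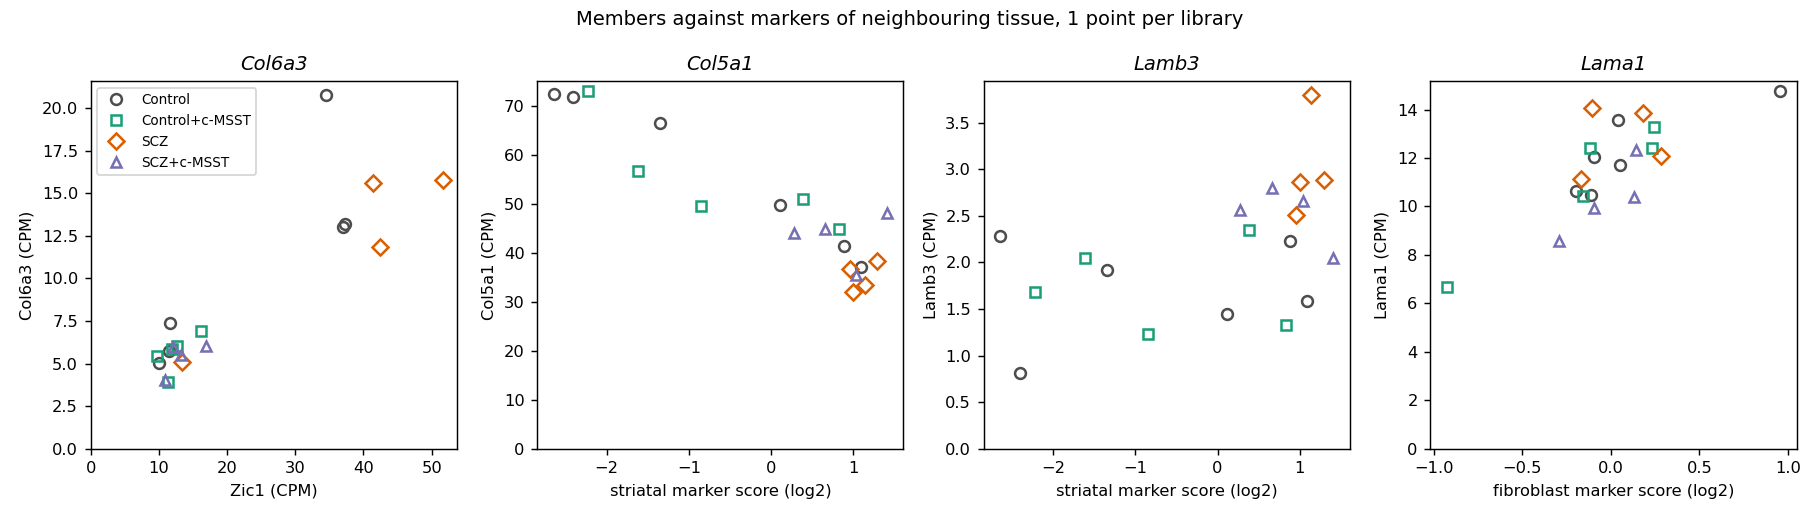
Each point is 1 library, coloured by group: Col6a3 against Zic1 (both CPM), Col5a1 and Lamb3 (CPM) against the striatal score, and Lama1 (CPM) against the fibroblast score. The 6 libraries with Zic1 of 34.5 to 51.6 CPM hold Col6a3 at 11.9 CPM or more.

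The remaining members named by rule are given by class, and none passed the test. Col11a2, a chain of the minor fibrillar collagen XI, was at 21.2 to 29.2 CPM (median 22.7) in Control and at 27.1, 21.8, 20.99, 18.01 and 20.7 CPM in Control+c-MSST. Levels of Col11a2 were 26.2, 26.2, 26.5 and 29.3 CPM in SCZ and 24.9, 26.3, 27.8 and 26.2 CPM in SCZ+c-MSST. The ranges of Col11a2 overlapped in all 4 comparisons. Its averaged MK-801 value was 0.23 (adjusted p = 0.127). Col6a2, the partner chain of Col6a1, was at 18.5 to 32.5 CPM (median 23.5) in Control and at 26.3, 29.2, 22.8, 39.8 and 25.3 CPM in Control+c-MSST. Levels of Col6a2 were 26.6, 23.7, 30.96 and 27.8 CPM in SCZ and 28.6, 30.1, 29.6 and 25.8 CPM in SCZ+c-MSST. Col6a2 overlapped between the groups of every comparison. Col6a5, an alternative collagen VI chain, was at 0.877 to 2.69 CPM (median 1.95) in Control and at 0.807, 2.35, 1.43, 0.903 and 0.869 CPM in Control+c-MSST. Levels of Col6a5 were 3.01, 2.38, 2.84 and 3.35 CPM in SCZ and 1.58, 1.42, 2.21 and 2.37 CPM in SCZ+c-MSST. For Col6a5, SCZ+c-MSST lay wholly below SCZ, and the other comparisons overlapped. Averaged over the other factor, Col6a5 gave 0.59 for MK-801 (adjusted p = 0.177) and -0.59 for c-MSST (adjusted p = 0.202). Col15a1, a multiplexin of vascular basement membranes, was at 8.15 to 16.5 CPM (median 12.6) in Control and at 11.00, 9.44, 9.02, 8.75 and 10.9 CPM in Control+c-MSST. Levels of Col15a1 were 9.28, 10.9, 9.04 and 10.3 CPM in SCZ and 10.2, 10.4, 8.98 and 10.3 CPM in SCZ+c-MSST. The ranges of Col15a1 overlapped in all 4 comparisons. Col18a1, the multiplexin that holds the endostatin fragment, was at 4.82 to 8.43 CPM (median 5.69) in Control and at 6.78, 4.54, 5.67, 4.71 and 4.87 CPM in Control+c-MSST. Levels of Col18a1 were 5.77, 7.33, 6.51 and 6.82 CPM in SCZ and 7.01, 5.66, 6.87 and 6.74 CPM in SCZ+c-MSST. Col18a1 overlapped between the groups of every comparison. Log2 fold changes in SCZ versus Control were -0.33 for Col15a1 and 0.10 for Col18a1 (0.04 without Control replicate 5).

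Among FACIT collagens, which attach to the surface of fibrils, and related chains, values were as follows. Col12a1 was at 27.6 to 67.7 CPM (median 45.8) in Control and at 50.5, 55.8, 53.8, 71.2 and 62.5 CPM in Control+c-MSST. Levels of Col12a1 were 45.3, 44.2, 45.6 and 41.9 CPM in SCZ and 51.7, 55.02, 45.2 and 56.1 CPM in SCZ+c-MSST. Groups overlapped for Col12a1 in each of the 4 comparisons. Col19a1, the interneuron collagen, was at 71.6 to 109.7 CPM (median 81.2) in Control and at 82.6, 82.3, 99.1, 99.2 and 110.1 CPM in Control+c-MSST. Levels of Col19a1 were 79.6, 73.7, 62.7 and 60.03 CPM in SCZ and 88.2, 92.4, 71.1 and 98.2 CPM in SCZ+c-MSST. The ranges of Col19a1 overlapped in all 4 comparisons. Col12a1 gave 0.38 in Control+c-MSST versus Control (adjusted p = 0.260) and Col19a1 0.34 in SCZ+c-MSST versus SCZ (adjusted p = 0.608). Col22a1 was at 2.88 to 5.27 CPM (median 3.36) in Control and at 4.59, 3.83, 4.70, 5.02 and 4.38 CPM in Control+c-MSST. Levels of Col22a1 were 3.66, 3.86, 4.06 and 3.90 CPM in SCZ and 3.95, 3.02, 4.05 and 4.14 CPM in SCZ+c-MSST. Col22a1 overlapped between the groups of every comparison. Col9a1 was at 0.520 to 1.05 CPM (median 0.908) in Control and at 0.504, 0.702, 0.693, 0.888 and 1.26 CPM in Control+c-MSST. Levels of Col9a1 were 0.990, 1.21, 0.991 and 1.72 CPM in SCZ and 0.865, 0.566, 0.851 and 0.704 CPM in SCZ+c-MSST. For Col9a1, SCZ+c-MSST lay wholly below SCZ, and the other comparisons overlapped. Col9a1 gave -0.72 in SCZ+c-MSST versus SCZ (adjusted p = 0.608). Col24a1, a fibrillar collagen, was at 7.33 to 17.2 CPM (median 9.25) in Control and at 12.9, 9.17, 10.3, 7.46 and 13.5 CPM in Control+c-MSST. Levels of Col24a1 were 10.8, 8.96, 7.69 and 8.47 CPM in SCZ and 12.8, 15.04, 12.6 and 10.9 CPM in SCZ+c-MSST. For Col24a1, SCZ+c-MSST lay wholly above SCZ, and the other comparisons overlapped. Col23a1, a transmembrane collagen, was at 4.36 to 25.5 CPM (median 8.86) in Control and at 12.8, 9.80, 11.5, 13.2 and 10.8 CPM in Control+c-MSST. Levels of Col23a1 were 5.53, 9.15, 5.84 and 5.58 CPM in SCZ and 8.96, 5.84, 10.9 and 8.25 CPM in SCZ+c-MSST. Col23a1 overlapped between the groups of every comparison. Col25a1, the neuronal transmembrane collagen, was at 58.7 to 81.6 CPM (median 75.7) in Control and at 89.6, 51.5, 82.98, 80.8 and 82.96 CPM in Control+c-MSST. Levels of Col25a1 were 67.1, 79.97, 77.3 and 55.3 CPM in SCZ and 66.96, 66.4, 72.5 and 83.1 CPM in SCZ+c-MSST. Groups overlapped for Col25a1 in each of the 4 comparisons. Col26a1 was at 8.41 to 10.3 CPM (median 8.69) in Control and at 12.3, 3.33, 7.90, 9.28 and 8.53 CPM in Control+c-MSST. Levels of Col26a1 were 8.14, 7.61, 7.06 and 7.75 CPM in SCZ and 8.44, 9.47, 8.22 and 10.3 CPM in SCZ+c-MSST. For Col26a1, SCZ lay wholly below Control and SCZ+c-MSST lay wholly above SCZ, and the other comparisons overlapped. Col7a1, the anchoring fibril collagen, was at 3.31 to 5.89 CPM (median 4.08) in Control and at 6.59, 3.45, 4.48, 4.80 and 3.13 CPM in Control+c-MSST. Levels of Col7a1 were 3.94, 4.38, 4.55 and 5.74 CPM in SCZ and 4.67, 3.83, 4.06 and 4.48 CPM in SCZ+c-MSST. Col7a1 overlapped between the groups of every comparison. The log2 fold change of Col24a1 in SCZ+c-MSST versus SCZ was 0.51 (adjusted p = 0.636).

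The other laminin chains are given next, beginning with the beta chains that pair with most vascular alpha chains. Lamb1 was at 25.4 to 58.4 CPM (median 37.02) in Control and at 41.2, 38.1, 37.1, 40.4 and 31.7 CPM in Control+c-MSST. Levels of Lamb1 were 39.9, 43.96, 44.2 and 42.1 CPM in SCZ and 36.1, 39.3, 37.8 and 33.3 CPM in SCZ+c-MSST. For Lamb1, SCZ+c-MSST lay wholly below SCZ, and the other comparisons overlapped. Lamb2 was at 30.5 to 45.1 CPM (median 35.1) in Control and at 36.99, 37.9, 32.1, 32.96 and 35.8 CPM in Control+c-MSST. Levels of Lamb2 were 38.5, 35.2, 38.7 and 40.9 CPM in SCZ and 34.9, 32.6, 32.8 and 34.9 CPM in SCZ+c-MSST. For Lamb2, SCZ+c-MSST lay wholly below SCZ, and the other comparisons overlapped. Log2 fold changes in SCZ+c-MSST versus SCZ were -0.21 for Lamb1 and -0.18 for Lamb2. Lamc1, the gamma chain of most vascular laminins, was at 68.1 to 85.9 CPM (median 78.4) in Control and at 85.1, 71.9, 67.9, 62.2 and 69.1 CPM in Control+c-MSST. Levels of Lamc1 were 73.5, 70.01, 73.8 and 73.4 CPM in SCZ and 69.2, 79.2, 78.8 and 82.1 CPM in SCZ+c-MSST. Lamc1 overlapped between the groups of every comparison. Lamc3 was at 8.04 to 16.9 CPM (median 12.4) in Control and at 16.4, 15.1, 12.2, 12.2 and 15.5 CPM in Control+c-MSST. Levels of Lamc3 were 14.2, 12.6, 13.98 and 14.5 CPM in SCZ and 13.2, 8.13, 12.9 and 12.98 CPM in SCZ+c-MSST. Groups overlapped for Lamc3 in each of the 4 comparisons. Lama5 was at 16.7 to 23.2 CPM (median 19.4) in Control and at 22.8, 23.2, 21.7, 22.7 and 22.4 CPM in Control+c-MSST. Levels of Lama5 were 21.3, 20.2, 23.1 and 22.8 CPM in SCZ and 22.1, 20.8, 19.7 and 20.2 CPM in SCZ+c-MSST. The ranges of Lama5 overlapped in all 4 comparisons. Interaction values were 0.21 for Lamc1 (adjusted p = 0.717) and -0.38 for Lamc3 (adjusted p = 0.752), the latter -0.24 without SCZ+c-MSST replicate 3. A further 26 members, not given by library, averaged 0.993 to 24.3 CPM. Their log2 fold changes in SCZ versus Control ran from -1.13 (Col4a3, -0.66 without Control replicate 2) to 0.67 (Col6a6, 0.33 without SCZ replicate 5), and in Control+c-MSST versus Control from -0.88 (Col8a2, 0.75 without Control replicate 2) to 0.35 (Col17a1, 0.14 without Control+c-MSST replicate 6). The 11 fibrillar collagens had a median of -0.24 in SCZ versus Control, -0.09 without Control replicate 3.

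The genes that build, bind and cut this matrix were listed as well. All 17 basement membrane partners, 29 genes of collagen biosynthesis and crosslinking and 16 receptors were tested, with 16 of 19 proteases and inhibitors and 18 of 20 genes of wound and reactive glia. One gene of these lists passed, and only in Control+c-MSST versus Control: Smoc2, a matricellular protein of basement membranes. Of all genes tested, 0.329% passed in that contrast. Smoc2 was at 13.3 to 20.04 CPM (median 15.97) in Control and at 19.6, 23.6, 28.04, 41.1 and 29.6 CPM in Control+c-MSST. Levels of Smoc2 were 11.2, 13.99, 15.4 and 10.01 CPM in SCZ and 15.5, 18.3, 16.1 and 17.2 CPM in SCZ+c-MSST. For Smoc2, SCZ+c-MSST lay wholly above SCZ and SCZ+c-MSST lay wholly below Control+c-MSST, and the other comparisons overlapped. Smoc2 rose in Control+c-MSST versus Control by 0.80 ± 0.16 (SE) on the log2 scale (adjusted p = 0.0439), with overlap between the groups. Without Control+c-MSST replicate 6 the value was 0.63 and did not pass. With 1 library left out it passed in 5 of 19 fits, those without Control replicates 1 or 7, Control+c-MSST replicates 1 or 2 or SCZ replicate 5. Of 31 alternatives it passed in 13. In the other 6 contrasts no gene of the 5 lists passed. Gfap, the intermediate filament of reactive astrocytes, had a log2 fold change of -0.68 (adjusted p = 0.246) in Control+c-MSST versus Control, and Mmp17, a membrane metalloproteinase, 0.24 (adjusted p = 0.0698). In that contrast all 7 oligodendrocyte, 8 ependymal and 8 astrocyte markers were below 0 (medians -0.58, -1.32 and -0.10). All 10 choroid plexus, 5 septal and 9 striatal markers were below 0 as well (medians -3.89, -0.84 and -0.18). At an unadjusted edgeR p under 0.05 stood 7, 5 and 4 of the former lists and 10, 3 and 0 of the latter. The share of all genes was 16.6%, and none of these markers passed adjustment. The oligodendrocyte score was -1.70 in Control+c-MSST replicate 6 and -0.454 to 0.0434 in the others of its group. The choroid plexus score was highest in Control replicate 2, at 5.57. Of 8 excitatory and 8 microglia markers, 5 and 6 were above 0. The part of the tissue taken in these differences was not tested.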

How the data were processed

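RNA of the left prelimbic cortex was sequenced in 19 libraries, grouped by their titles. The authors deposited estimated counts and FPKM values per gene, 1 column per library. The build mm10 and the tools StringTie 1.3.5, STAR 2.7.7a, fastp 0.19.5 and Picard 2.18.29 are named in the submitters' processing notes; annotation and strand setting are not given in the sources used here. Estimated counts as deposited were whole numbers, so none was rounded. Library totals were 50140626 to 82416746, and floors cover counting error only.

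Counts were tested with edgeR 4.0.16 (R 4.3.3): filterByExpr, TMM, a robust quasi-likelihood fit on all 19 libraries, 7 contrasts, and Benjamini-Hochberg adjustment over 16417 genes, tested on simulated data first. CPM were TMM-normalized. Nothing says whether libraries of a group came from separate litters or days, so p-values measure the spread between these libraries.

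Members and lists were chosen with earlier results of these data known. Values by library were given for the 3 members of lowest p per direction and contrast at a mean of at least 0.5 CPM, and for the 2 with the highest FPKM in each structural class; members with the highest value in a single library were named after their values were seen. Alternatives were DESeq2 1.42.0, limma voom and limma on log2 FPKM (limma 3.58.1, pseudocounts 1 and 0.1), other normalizations and filters, a replicate block, and leaving out libraries. One member that the rule took is not reported here. Sequences are from RefSeq (GRCm38.p6).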

Additional observations from a re-analysis of the deposited data

Results flagged for a closer look

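In 116 groups of libraries (29 named members in 4 groups), the highest or lowest library was checked for its distance from the others, and 10 stood apart; chance gives about 5% of groups. Col11a2 was 29.3 CPM in SCZ replicate 5, above the 26.2 to 26.5 CPM of the other libraries of its group. In SCZ+c-MSST replicate 4, Col15a1 stood at 8.98 CPM, below the 10.2 to 10.4 CPM of the others. Col22a1 was 5.27 CPM in Control replicate 1, above the 2.88 to 3.62 CPM of the other libraries of its group. In SCZ+c-MSST replicate 3, Col22a1 stood at 3.02 CPM, below the 3.95 to 4.14 CPM of the others. Col23a1 was 25.5 CPM in Control replicate 3, above the 4.36 to 11.2 CPM of the other libraries of its group. In SCZ replicate 2, Col23a1 stood at 9.15 CPM, above the 5.53 to 5.84 CPM of the others. Col25a1 was 51.5 CPM in Control+c-MSST replicate 2, below the 80.8 to 89.6 CPM of the other libraries of its group. In Control replicate 2, Col4a4 stood at 3.07 CPM, above the 0.471 to 1.12 CPM of the others. Lamc1 was 70.01 CPM in SCZ replicate 2, below the 73.4 to 73.8 CPM of the other libraries of its group. In SCZ+c-MSST replicate 3, Lamc3 stood at 8.13 CPM, below the 12.9 to 13.2 CPM of the others.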

How the results depend on the processing

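DESeq2 called 2 members in SCZ versus Control (Col4a1 and Col5a1), 1 in Control+c-MSST versus Control (Lama2), 1 for averaged c-MSST (Col6a3) and 4 for averaged MK-801 (Col4a1, Col4a2, Col5a1 and Lamb3), where edgeR called 0. Voom called 2 for averaged MK-801 (Col4a1 and Col11a2). Leaving out 1 library gave 0 to 1 members in SCZ versus Control (1 without Control replicate 4). It also gave 0 to 1 in Control+c-MSST versus Control and for averaged c-MSST (1 without Control replicate 7 in each). For averaged MK-801 it gave 0 to 2 (above 0 without Control replicates 4 or 5 or Control+c-MSST replicates 1 or 2). Over all genes, these fits called 0 to 94 in SCZ versus Control and 0 to 314 in Control+c-MSST versus Control. They called 0 to 223 for averaged c-MSST and 0 to 286 for averaged MK-801. The members' median log2 fold change without Control replicates 2 and 3 was 0.0914 in SCZ versus Control, 0.0187 in Control+c-MSST versus Control, 0.0473 for averaged c-MSST and -0.0495 for the interaction. On log2 FPKM it was -0.00705 (pseudocount 1, with or without a filter) and 0.00827 (0.1) in Control+c-MSST versus Control, and -0.0230 and -0.0788 for the interaction, whose voom value was -0.00771. With the striatal score as a covariate it was 0.0514 in SCZ+c-MSST versus Control+c-MSST and 0.0344 for averaged MK-801, and without the libraries with Zic1 above 30 CPM 0.109 in SCZ+c-MSST versus SCZ. In those settings Col5a1 turned to 0.00286 (SCZ+c-MSST versus Control+c-MSST, striatal score) and Col6a3 to 0.0886 (SCZ+c-MSST versus SCZ, Zic1). The Zic1 setting removes the 6 libraries highest in Col6a3 and leaves 1 SCZ library (replicate 1), assumed to vary like the other groups. Every library of MK-801 mice lies among the 13 with the higher striatal score, so that covariate cannot be separated from MK-801. The cause was not tested. The replicate block gave 0 members and 0 genes called in all 7 contrasts. Its medians were -0.00290 in Control+c-MSST versus Control and 0.000826 for the interaction. A correlation over 0.1 between same-numbered libraries was found in 1 of 19 pairs. The labels do not say whether the numbers mark pairs, and these correlations cannot settle it. Over all genes, edgeR, DESeq2 and voom called 0, 238 and 2 in SCZ versus Control, 54, 571 and 25 in Control+c-MSST versus Control, 0, 62 and 46 in SCZ+c-MSST versus SCZ, and 0, 571 and 189 for averaged MK-801. The same tools called 0, 73 and 40 in SCZ+c-MSST versus Control+c-MSST. For averaged c-MSST they called 2, 458 and 283, and for the interaction 0, 40 and 0.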
